A study of Caenorhabditis elegans with 30 samples.

Results

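The comparison described here asks what the daf-2 mutation does to the transcriptome of Caenorhabditis elegans that lack their main histone H3.3 genes. The triple mutant daf-2;his-72;his-71 was set against the double mutant his-72;his-71. daf-2 carries the allele e1370, his-71 the allele ok2289 and his-72 the allele tm2066. Both groups therefore lack his-72 and his-71 and differ by the daf-2 allele. A gene was a member of the comparison where the higher of the 2 groups had at least 5 FPKM and both were above 0, which held for 11871 of 20483 genes. FPKM, the unit of expression, is the number of sequenced fragments per kilobase of a transcript for every 1000000 that mapped. The other 8612 genes comprised 8587 with less than 5 FPKM in both groups and 25 at 0 in 1 group with at least 5 FPKM in the other.

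Whole worms were collected, according to the labels, late in the L4 stage, the last larval stage before adulthood. Cultures started from bleached populations and were kept at 20 °C with OP50 bacteria as food, with 5 libraries per genotype and 10 of the study's 30 in this comparison. The authors deposited 1 pooled FPKM value per gene and genotype. A single value per genotype leaves no replicate spread, so every difference below is a ratio of 2 pooled values, without a test, an error or a check in replicates. Sequencing depth is unknown, and a ratio against a value under 0.1 FPKM is imprecise. Some genes are listed at 1 locus together with another gene, which leaves their values uncertain. Named here, they are akt-1, bli-1, bli-2, col-35, cpg-3, ctl-2, cut-5, cyc-2.1, cyc-2.2, daf-21, elo-5, far-3, fat-5, grl-20, lgg-2, lin-29, mrpl-12, msra-1, nhr-114, nos-2, pal-1, sod-3, tbh-1, tdc-1 and unc-38.

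daf-2 encodes the insulin and IGF-1 receptor of the worm. When the receptor is active, the kinases PDK-1, AKT-1 and SGK-1 keep the transcription factor DAF-16, a FOXO protein, out of the nucleus. When signalling is low, DAF-16 enters the nucleus and genes of stress resistance, metabolism and immunity are induced, and worms can enter the dauer stage, an alternative larval stage that survives without food. The allele e1370 changes a residue of the receptor's kinase domain and leaves the transcript in place, so the level of daf-2 mRNA is no check of the genotype. Histone H3.3 replaces the replicative histone H3 in chromatin outside DNA replication.

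The deleted genes matched their labels. The double mutant had 0.276 FPKM of his-71 (chromosome X, 7981381 to 7982070) and the triple mutant 0.372, beside 303 in wild type (WT) and 344 in daf-2. his-72 (chromosome III, 12367475 to 12369050) had 0.408 and 0.293 FPKM in the same 2 groups, beside 418 and 330.1 in WT and daf-2. Both genes were thus near 0 on both sides of the comparison. daf-2 itself (chromosome III, 2995763 to 3028800) had 12.7 FPKM in his-72;his-71 and 21.2 in the triple mutant, a ratio of 1.67. Positions are those of the authors' tables, whose genome build is not given in the sources used here.

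Throughout, higher and lower are calls made at a ratio of 2 or more. Of the compared genes 1563 (13.2%) were higher in the triple mutant and 1604 (13.5%) were lower. The median log2 ratio of all compared genes was -0.07. The split depended on how the pools were scaled: with both pools scaled to the same summed FPKM, which moves every log2 ratio up by 0.39, 2675 genes were higher and 831 lower. For that reason the median of a gene list is given below less the median of all compared genes, a difference that a common scaling factor hardly moves. It takes no account of level, and abundant genes had lower ratios. Those with at least 100 FPKM in both groups had a median log2 ratio of -0.49. Of the genes called higher, 826 had less than 5 FPKM in his-72;his-71 and entered through the triple mutant, and 612 of those called lower had less than 5 FPKM in the triple mutant. At the minimum itself, C18D11.6 with 0.439 and 4.996 FPKM stood just outside and tsp-3 with 3.28 and 5.01 FPKM just inside.

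The tails of the distribution were unequal. At least 10-fold differences were seen in 551 genes (4.64%) that were higher and in 36 (0.303%) that were lower. At least 100-fold, they numbered 224 (1.89%) and 3 (0.0253%), and 51 genes (0.43%) were at least 1000-fold higher while 0 were as much lower. All 51 had less than 1 FPKM in his-72;his-71, 28 of them less than 0.1, and 27 reached at least 100 FPKM in the triple mutant. In daf-2 over WT, the same allele with H3.3 present, the asymmetry at 10-fold was the other way, with 199 genes (1.74%) at least 10-fold higher and 316 (2.77%) as much lower. That contrast shares no pool with this one.

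**Figure D1:**
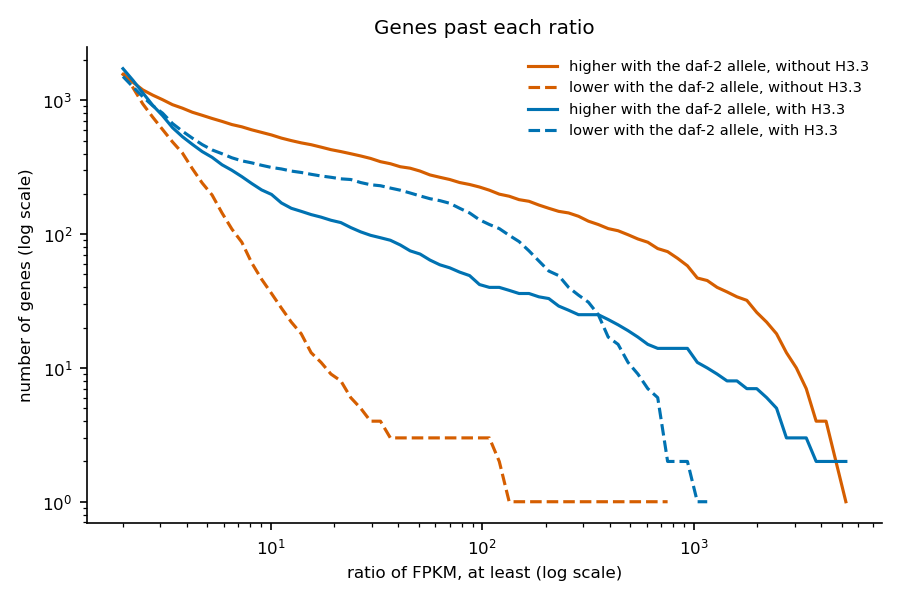
Number of genes (log scale) whose FPKM ratio was at least the value on the horizontal axis (log scale), for genes higher (solid) and lower (dashed) with the daf-2 allele, without H3.3 (orange) and with H3.3 (blue). The orange solid line lies far above the orange dashed one from about 10-fold on, where it counts 551 genes against 36.

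The genes with the largest ratios were near 0 in the double mutant. F35E8.6, a gene without annotated function, had 0.00969 and 56 FPKM in his-72;his-71 and the triple mutant, and its ratio of 5778 rests on a value close to 0. The next were clec-19, a C-type lectin gene (0.00279 and 14 FPKM), grl-25, of the ground-like branch of the hedgehog-related family (0.0141 and 65.2), and asp-18, an aspartyl protease gene (0.00315 and 14.4). They were followed by the neuropeptide-like gene nlp-39, which had 45.5 FPKM in the triple mutant. Among the 10 genes with the largest ratios were 3 cuticle collagens, with 552 FPKM for col-183, 151 for col-50 and 60.8 for col-35 in the triple mutant. The ground-like gene grl-23 had 0.146 and 480.3 FPKM, and the lectin gene clec-18 had 0.00858 and 26.7 FPKM.

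In the other direction the ratios were smaller and the genes better expressed in the double mutant. C36C5.15 had 6.36 FPKM in his-72;his-71 and 0.00806 in the triple mutant, a ratio of 789 that rests on 1 value near 0. C36C5.14, named from the same cosmid, had 9.87 and 0.0784 FPKM. A second pair with neighbouring names, F49C5.12 and F49C5.11, had 14.5 and 100.1 FPKM in the double mutant and 0.123 and 2.75 in the triple mutant. None of the 4 has an annotated function in the authors' tables. The most abundant of the 10 was ilys-5, an invertebrate-type lysozyme gene, with 1515 and 56.2 FPKM (26.9-fold lower). The F-box gene fbxa-72 had 169 and 6.43 FPKM, and the lectin gene clec-10 54.1 and 2.38.

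Genes with at least 100 FPKM in both groups give ratios free of values near 0. There were 1053, of which 37 were higher and 144 lower, with a median log2 ratio of -0.49. The highest ratios among them belonged to the cysteine protease inhibitor cpi-1 (102 and 756 FPKM), the transthyretin-related gene ttr-51 (154 and 1113) and the Y-box gene cey-2 (148 and 799). The lowest belonged to ZK6.11, now named irg-8, an infection response gene with 1871 and 167 FPKM, and to msra-1, a methionine sulfoxide reductase gene with 2389 and 223. pmt-2, a methyltransferase of phosphocholine synthesis, had 844 and 135 FPKM, and the intestinal protease gene cpr-5 998 and 160.2.

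**Figure D2:**
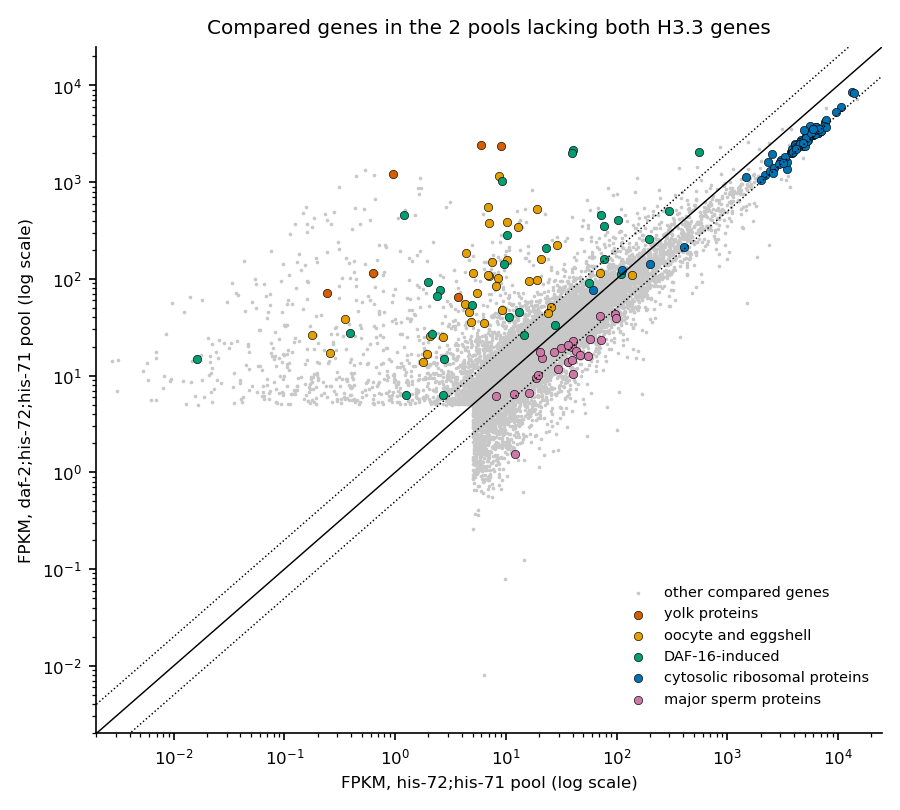
FPKM of the compared genes in his-72;his-71 (horizontal, log scale) and daf-2;his-72;his-71 (vertical, log scale), 1 pooled value each, with 5 gene lists coloured; the solid line marks equal values and the dotted lines a ratio of 2. Yolk genes, 31 of 35 oocyte and eggshell genes and 24 of 30 DAF-16-induced genes stand above the upper dotted line. Of the 80 cytosolic ribosomal protein genes 78 lie below the line of equal values, 12 of them past the lower dotted line, and 2 lie above it.

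In the insulin pathway itself, of 26 compared genes 3 were higher and 1 lower (9 and 0 with the summed scaling), and the list median was 0.32 above that of all genes. The share called higher, 11.5%, was near the 13.2% of all compared genes. The kinase genes pdk-1 (5.65 and 18.3 FPKM) and akt-1 (53.7 and 125) were higher. The kinase gene sgk-1 was lower (43.5 and 18.7 FPKM). daf-16 had 73.6 and 89 FPKM, a ratio of 1.21 that falls short of the call; it was chosen after its values were seen.

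Most of the compared insulin-like peptides, the ligands of DAF-2, were higher. Of 40 genes found 27 were compared, 17 were higher and 0 lower; 8 of the 27 entered through the triple mutant alone. Among the 19 with at least 5 FPKM in both groups 9 were higher. The most abundant, ins-35, had 54.4 and 647 FPKM in the double and triple mutants, and 56.4 and 3202 in WT and daf-2. ins-33 had 9.06 and 90.2 FPKM without H3.3 and 11.6 and 567 with it. For both peptides the daf-2 allele thus went with a higher level in either background, and the level in the triple mutant was the lower of the 2 daf-2 pools. ins-2 and ins-19 differed from these: ins-2 had 6.21 FPKM in the triple mutant and 0.11 in daf-2, and ins-19 8.11 and 0.126. Peptides regarded as DAF-2 agonists, ins-6 (8.9 and 11.5 FPKM) and daf-28 (28.7 and 35.5), did not reach the ratio of 2; these were chosen after their values were seen.

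Genes known to be induced by DAF-16 were mostly higher. Of 30 compared, 24 were higher and 0 lower, with a list median 2.61 above that of all genes on the log2 scale; 11 of the 30 entered through the triple mutant alone, and 13 of the 19 with at least 5 FPKM in both groups were higher. In daf-2 over WT, 25 of 29 were higher and 0 lower, where 15.1% of the 11405 genes compared there were higher and 13.2% lower. The list was drawn up for the effect of reduced insulin signalling, and its members were chosen with values of these data known.

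The abundant members reached levels in the triple mutant that differed from those in daf-2 in both directions. The lysozyme gene lys-7 had 40.6 FPKM in his-72;his-71 and 2132 in the triple mutant, beside 35.7 in WT and 1095 in daf-2. The small heat shock protein gene sip-1 had 39.8 and 2013 FPKM without H3.3 and 43.3 and 333 with it. In both genes the triple mutant was the highest of these 4 pools. The metallothionein gene mtl-1 had 1.21 and 457 FPKM, 377-fold higher, beside 2.87 and 689 in WT and daf-2. The linker histone gene hil-1 had 1.97 and 93.7 FPKM, and 2.11 and 115 with H3.3. far-3, a fatty acid and retinol binding protein gene, had 9.16 and 1028 FPKM, and 3872 in daf-2. For mtl-1, hil-1 and far-3 the daf-2 pool was the higher of the 2 daf-2 pools. Members that did not reach the ratio of 2 included the second metallothionein gene, mtl-2 (109 and 113 FPKM), and icl-1, of the glyoxylate cycle (295 and 499). scl-1 was listed at 0 in his-72;his-71 and had 21 FPKM in the triple mutant. mtl-2 and scl-1 were chosen after their values were seen.

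Of 10 compared genes known to be repressed under reduced insulin signalling, 5 were lower and 2 higher. dod-17 and dod-24, of a family with CUB-like domains, had 32.9 and 75.8 FPKM in the double mutant and 4.19 and 11.4 in the triple mutant. The lysozyme gene lys-4 had 1399.6 and 338 FPKM. Its values in WT and daf-2 were 1321 and 1232, which differed by less than 2-fold. T24B8.5, a target of the p38 immune pathway, was higher, with 7.14 and 160.3 FPKM, and so was dod-23 (0.339 and 25.7). T24B8.5 was also high in daf-2 (154 FPKM), while dod-23 had 0.0481 there.

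**Figure D3:**
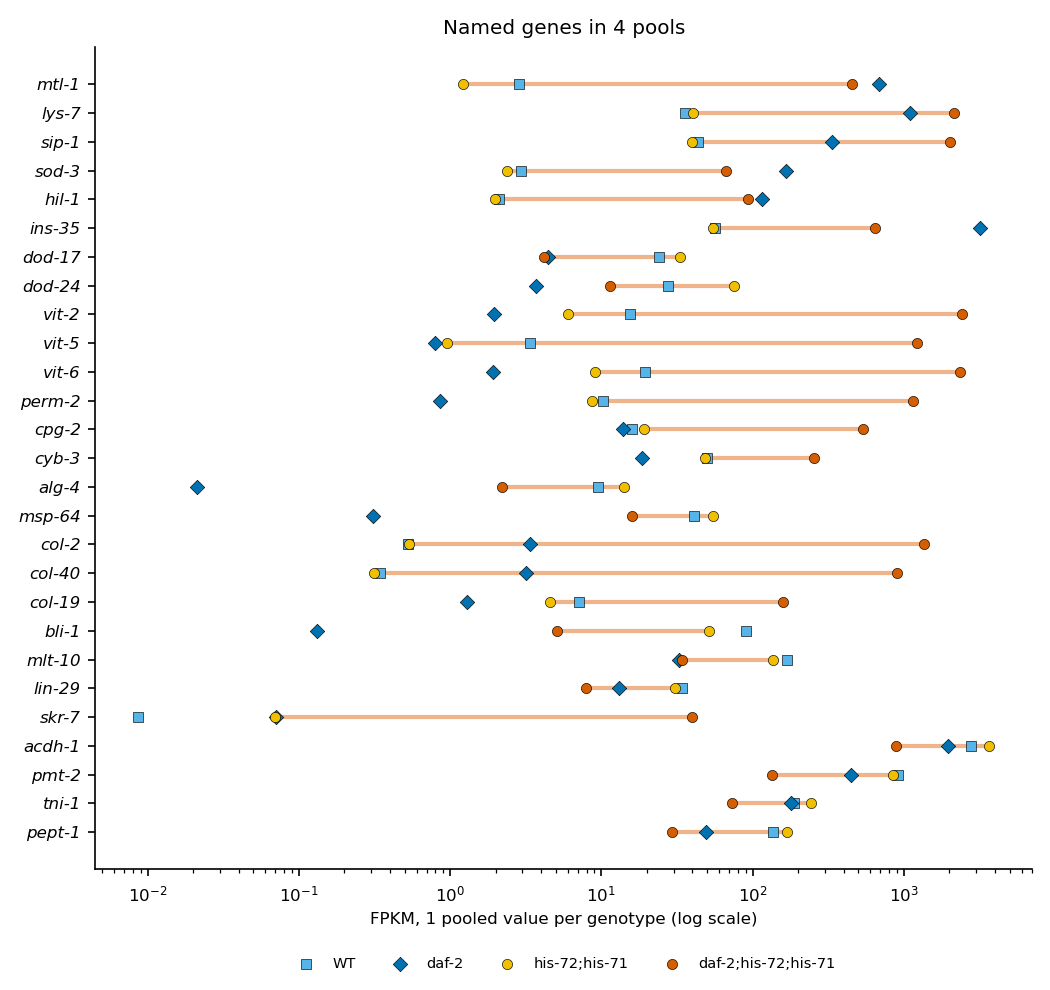
FPKM (log scale, 1 pooled value per genotype) of 27 named genes in WT, daf-2, his-72;his-71 and daf-2;his-72;his-71; the bar joins the 2 pools without H3.3. For lys-7 and sip-1 the triple mutant has the highest value of the 4 pools, and for vit-2, vit-5 and vit-6 it is above 1000 FPKM while the other 3 pools are under 20 FPKM.

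Stress defence genes overlap with the DAF-16-induced list. All 4 of the 17 compared antioxidant enzyme genes that were higher, and 4 of the 6 higher heat shock genes, belong to it as well and are counted in both places. The mitochondrial superoxide dismutase gene sod-3 had 2.38 and 66.5 FPKM, and the catalase genes ctl-1, ctl-2 and ctl-3 were between 2.08-fold and 5.04-fold higher. In contrast, msra-1, described above, was the 1 lower gene of the antioxidant list (2389 and 223 FPKM), and the peroxiredoxin gene prdx-2 had 1269 and 876. Of the 17 antioxidant genes 11 had a smaller value in the triple mutant (6 with the summed scaling), and the relative median was -0.18. Of 16 compared cytosolic heat shock genes 6 were higher and 0 lower. hsp-12.6, a small heat shock protein gene, had 2.55 and 77.6 FPKM. The heat-inducible hsp-16.2 had 13.1 and 45.9 FPKM, but 264 in WT and 1232 in daf-2, so both pools without H3.3 were below both pools with it. The constitutive chaperone genes hsp-1 (1319 and 1079 FPKM) and daf-21, the HSP90 gene (1064 and 1011), differed by less than 1.5-fold. None of 22 genes of the endoplasmic reticulum stress response reached the ratio of 2 in either direction.

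Detoxification families differed in how many members were called. Of 39 compared cytochrome P450 genes 18 were higher and 2 lower; 15 of the 39 entered through the triple mutant alone, and 36 of the 75 found were too low to compare. cyp-34A9 had 4.91 and 54.3 FPKM, and cyp-13A2 had 30.4 and 7.78. Of 30 compared glutathione S-transferase genes 9 were higher and 5 lower (12 and 2 of 31 with the summed scaling), beside 23 of 37 higher and 1 lower in daf-2 over WT. gst-10 had 77.2 and 349 FPKM without H3.3 and 87 and 1370.2 with it. gst-24 was lower without H3.3 (27.2 and 10.5 FPKM) and higher with it (17.6 and 48). The UDP-glycosyltransferase genes were 10 higher and 13 lower of 46 (14 and 6 of 50 with the summed scaling), with ugt-41 at 10.8 and 56.8 FPKM and ugt-16 at 36.5 and 7.01. The difference between the 2 contrasts was not tested.

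Innate immunity effectors, the lectins, lysozymes and antimicrobial peptides, were called in both directions. Of 144 compared, 44 were higher and 33 lower, and 34 entered through the triple mutant alone; of the 97 with at least 5 FPKM in both groups, 14 were higher and 21 lower. With the summed scaling 58 of 151 were higher and 22 lower. The saposin-like gene spp-9 had 2.85 and 548 FPKM, and spp-5 had 1551 and 2590.2. The lectin gene clec-47 had 374 and 24.9 FPKM. clec-101, also a lectin gene, had 0.0361 and 71.9 FPKM, but 0.0439 in daf-2.

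Respiratory chain genes had smaller values in the triple mutant, mostly by less than 2-fold. All 29 compared complex I genes had a lower value in the triple mutant (28 with the summed scaling), 0 of them past the ratio of 2, with a median -0.64 relative to all genes. In the list of complexes II to V with assembly factors, all 38 were lower in value (32 with the summed scaling) and 5 past the ratio of 2 (1 with the summed scaling), with a relative median of -0.67. Those 5 were 13.2% of the list, near the 13.5% of all compared genes. The ATP synthase gene atp-2 had 1741 and 1007 FPKM. cyc-2.2, a second cytochrome c gene, had 41.3 and 8.96 FPKM, while the main one, cyc-2.1, had 2561 and 1433. The 12 genes of the mitochondrial genome had a relative median of -0.66, with ctc-1, of complex IV, at 4251 and 2199 FPKM. Most of these genes are abundant, and abundant genes as a class had lower ratios. Before the median of all genes was taken off, the list medians were -0.71, -0.74 and -0.73. Genes with at least 100 FPKM in both groups had a median of -0.49. In daf-2 over WT the relative medians of the first 2 lists were 0.06 and -0.05, and that of the mitochondrial genome 0.61.

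Most ribosomal protein genes had smaller values in the triple mutant, and how many passed the ratio of 2 depended on the scaling. Of 70 mitochondrial ribosomal protein genes 40 were lower and 0 higher (-0.96 relative to all genes), and 4 were lower with pools scaled to the same summed FPKM. mrps-14 had 152 and 51.4 FPKM, and mrpl-12 179 and 67.1. Of 80 cytosolic ribosomal protein genes 12 (15%) were lower, near the 13.5% of all genes, and 0 higher, and 0 were lower with the summed scaling (relative median -0.81). The unadjusted median of the cytosolic list was -0.88, beside -0.51 in the most abundant decile of compared genes. This list alone summed to 397682 FPKM in the double mutant, of 1227560 over all genes, and to 219060 of 935102 in the triple mutant. rpl-11.2 had 3471 and 1369.7 FPKM and rps-24 7819 and 3764. Mitochondrial stress response genes were 4 of 13 lower and 0 higher (0 lower and 1 higher with the summed scaling), the chaperonin gene hsp-60 at 255 and 100.03 FPKM among them. Proteasome genes were 0 of 33 past the ratio either way.

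Autophagy and lysosome genes were 7 of 32 higher and 0 lower (17 higher with the summed scaling), with a relative median of 0.70. lgg-1, an Atg8 protein that marks autophagosomes, had 389.8 and 799.9 FPKM, and its paralogue lgg-2 94.5 and 211. The autophagy receptor gene sqst-1 had 43 and 103 FPKM, and atg-2 had 11.5 and 32.

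Carbohydrate and fat metabolism showed single genes rather than whole lists past the ratio. Of 22 glycolysis and gluconeogenesis genes 3 were higher (13.6%, near the 13.2% of all compared genes) and 1 lower. The glyceraldehyde-3-phosphate dehydrogenase genes gpd-1 (16 and 97.9 FPKM) and gpd-4 (14.6 and 43.6) were higher, while gpd-3 had 733 and 678. Of 24 citric acid cycle genes 4 were lower (1 with the summed scaling), or 16.7% beside 13.5% of all compared genes. The leading ones, aco-1 (179.7 and 51 FPKM) and idh-1 (611 and 257), encode the cytosolic aconitase and isocitrate dehydrogenase. Of 16 fatty acid desaturase and elongase genes 6 were lower and 1 higher (3 and 1 with the summed scaling): the delta-9 desaturase gene fat-7 had 64.8 and 11.2 FPKM, while fat-5, a palmitate desaturase gene, had 7.08 and 69.1. The elongase gene elo-5 was lower here (448 and 161 FPKM) and higher in daf-2 over WT (355 and 1019). Among lipase and beta-oxidation genes 12 of 70 were higher and 17 lower (15 and 9 with the summed scaling). The lysosomal lipase genes lipl-1 (1.36 and 38.5 FPKM) and lipl-2 (1.58 and 30.5) were higher, and the acyl-CoA dehydrogenase gene acdh-1 (3676 and 882) was lower.

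**Figure D4:**
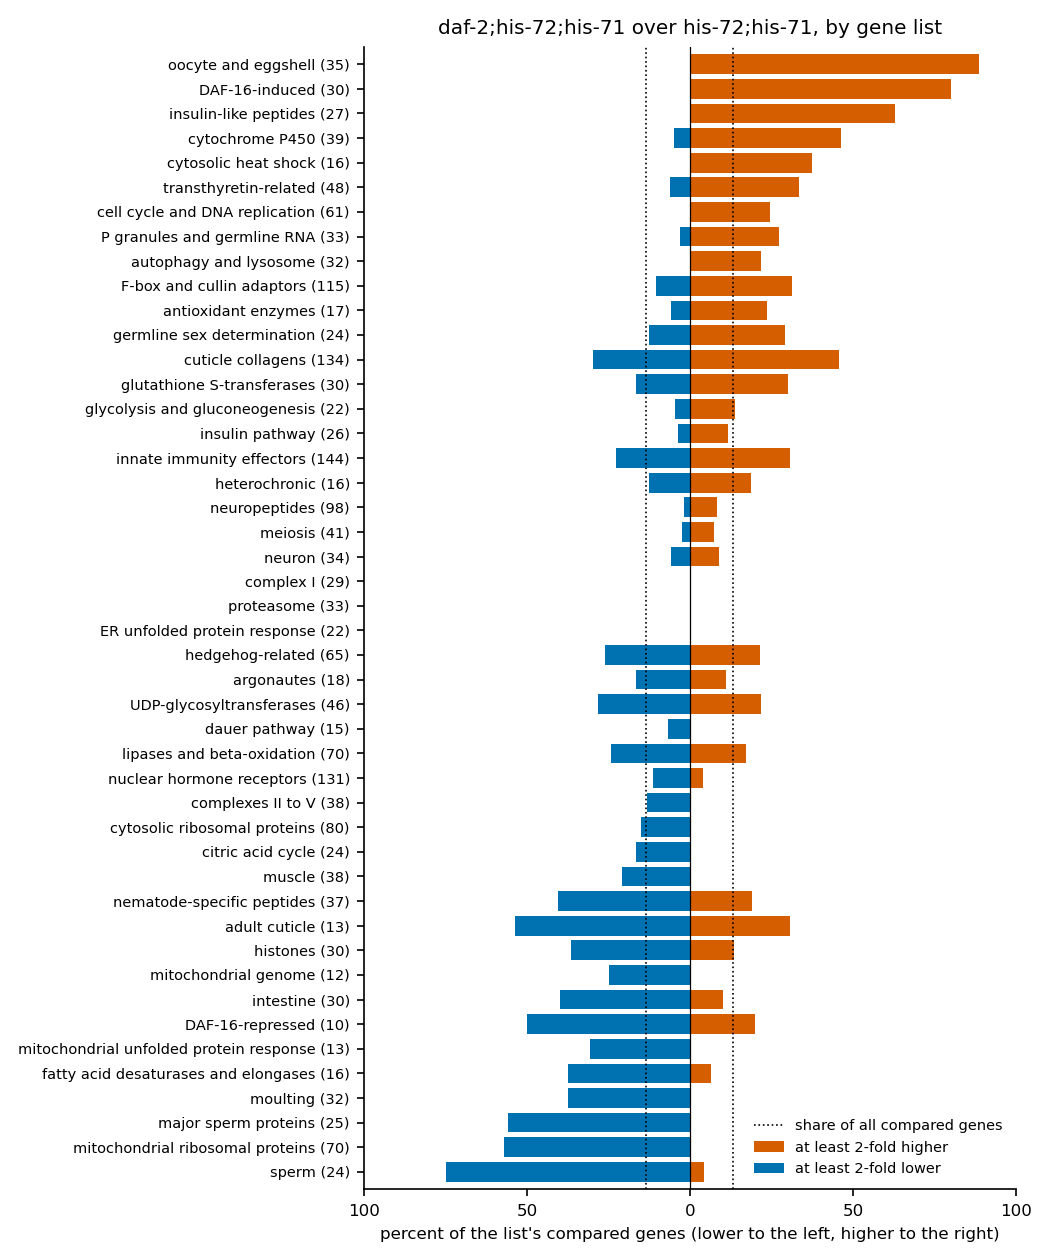
Share of the compared members, for gene lists with at least 10 of them, that were at least 2-fold higher (orange, to the right) or lower (blue, to the left) in the triple mutant; numbers in brackets are compared members, and dotted lines mark the shares of all compared genes, 13.2% and 13.5%. Among the lists shown, oocyte and eggshell, DAF-16-induced and insulin-like peptide genes reach farthest to the right, and sperm and mitochondrial ribosomal protein genes farthest to the left.

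Yolk genes set the triple mutant apart from his-72;his-71, WT and daf-2. Yolk proteins are made by the adult hermaphrodite intestine and taken up by oocytes. All 6 vit genes were higher, and 4 of them entered through the triple mutant alone. vit-2 (chromosome X, 5101032 to 5106173) had 6.02 FPKM in his-72;his-71 and 2435 in the triple mutant, beside 15.4 in WT and 1.95 in daf-2. vit-6 (chromosome IV, 8261007 to 8266463) had 9.05 and 2348 FPKM, and 19.5 and 1.91 with H3.3. The 6 genes together summed to 20.6 FPKM in the double and 6259 in the triple mutant. In WT and daf-2 the sums were 47.1 and 5.01, so the triple mutant alone of the 4 pools had abundant yolk transcripts. In daf-2 over WT, 3 vit genes could be compared and all 3 were lower.

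Oocyte and eggshell genes followed the same pattern. Of 35 compared, 31 were higher and 0 lower, 20 of them among the 24 genes with at least 5 FPKM in both groups, while in daf-2 over WT 0 of 21 were higher and 13 lower. perm-2, of the eggshell permeability barrier (chromosome IV, 1126791 to 1128848), had 8.68 and 1157 FPKM, and cpg-2, a chondroitin proteoglycan gene of the eggshell, 19.2 and 534. The yolk receptor gene rme-2, which the naming rule does not select and which was chosen after its values were seen, had 6.93 and 110.04 FPKM. pos-1, a maternal RNA-binding protein gene, likewise chosen afterwards, had 12.8 and 340.4 FPKM. The eggshell genes perm-4 (6.84 and 557 FPKM) and cpg-3 (7.01 and 377) belong to the rule's selection. In bulk RNA, fewer cells of a type and less RNA per cell cannot be told apart.

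Of 24 compared sperm genes 18 were lower and 1 higher, and 20 further sperm genes were too low to compare. As many as 12 of the 24 entered through his-72;his-71 alone, and of the 11 with at least 5 FPKM in both groups 6 were lower and 0 higher. The spermatogenesis Argonaute genes alg-3 and alg-4 had 10.5 and 14.2 FPKM in the double and 1.88 and 2.21 in the triple mutant. Major sperm protein genes were 14 of 25 lower (7 with the summed scaling), with msp-64 at 54.8 and 16 FPKM; these genes are nearly identical, and their single values are uncertain. In daf-2 over WT all 23 compared major sperm protein genes were lower, and msp-64 had 40.7 and 0.309 FPKM. The relative medians of the major sperm protein genes were -1.09 without and -6.58 with H3.3, and the difference between them was not tested.

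Among genes of the germline common to both gametes, meiosis genes were 3 of 41 higher and 1 lower (13 and 0 with the summed scaling), beside 0 higher and 30 of 39 lower in daf-2 over WT. him-8, which pairs the X chromosomes, had 84.3 and 162 FPKM. Germline sex determination genes were 7 of 24 higher and 3 lower (8 and 1 with the summed scaling). Of the 20 with at least 5 FPKM in both groups, 4 were higher and 2 lower. Among the higher ones, the translational regulator gld-1 had 91.9 and 193 FPKM, and 71.4 and 10.4 with H3.3. Others that were higher were gld-3, fem-3, nos-1, rnp-8 and her-1. The 3 lower genes were fog-3, fbf-1 and fbf-2. fog-3, which specifies sperm fate, had 23.4 and 3.19 FPKM. fbf-1 (15.1 and 7.02 FPKM) and fbf-2 (14.3 and 6.05) maintain germline stem cells. Germ granule and germline RNA genes were 9 of 33 higher and 1 lower. cgh-1, a germline RNA helicase gene, had 153 and 475 FPKM, and nos-2, a maternal gene, 0.356 and 38.8. The one lower gene was glh-1, a germ granule helicase gene (151 and 66.4 FPKM).

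Cell cycle and replication genes were 15 of 61 higher and 0 lower (35 higher with the summed scaling), and 60 of the 61 had a higher value in the triple mutant. The B-type cyclin gene cyb-3 had 48.2 and 256 FPKM without H3.3 and 50.2 and 18.5 with it. The replication clamp gene pcn-1 had 109 and 236 FPKM, and cyb-2.2 had 9.48 and 79.2. Of the histones, 4 of 30 compared genes were higher and 11 lower, and 53 of 83 were too low to compare. Of the 30, 10 entered through his-72;his-71 alone, and among the 18 with at least 5 FPKM in both groups 2 were higher and 3 lower. Besides hil-1, the linker histone gene hil-7 was higher (6.35 and 150.2 FPKM). his-70, an H3.3 family gene that both mutants retain, was lower (25.33 and 3.36 FPKM). The 10 other lower genes belong to the replicative histone families. Among them, his-3 had 27.5 and 6.45 FPKM and his-4 16.6 and 3.84; such genes are near-identical copies and their single values are uncertain.

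Cuticle genes divided into groups that went opposite ways. Of 134 compared collagens 61 were higher and 40 lower, 41 having entered through the triple mutant alone; among the 90 with at least 5 FPKM in both groups 20 were higher and 39 lower. With the summed scaling 63 of 134 were higher and 22 lower. col-125, abundant in the double mutant, had 1818 and 568 FPKM, and col-17 had 1462 and 516. Against these, col-2 (chromosome IV, 10084442 to 10085438) had 0.532 and 1351 FPKM, and col-40 0.313 and 898. The gene descriptions in the authors' tables place the peak of col-2 at the moult from L2 into dauer, and that of col-40 in L1 and at the moult of pre-dauer (L2d) larvae into dauer. The ground-like genes grl-23 and grl-25, described above, and grl-20 were among 14 of 65 hedgehog-related genes that were higher, while 17 were lower (18 and 6 of 66 with the summed scaling). Among these, 17 entered through the triple mutant alone, and of the 45 with at least 5 FPKM in both groups 1 was higher and 15 were lower, with grl-16 at 295 and 110.1 FPKM.

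Markers of stage were called in both directions in the triple mutant. The adult collagen gene col-19 had 4.6 FPKM in the double and 158 in the triple mutant, and 7.1 and 1.29 in WT and daf-2. bli-1 and bli-2, collagens of the struts of the adult cuticle, had 51.1 and 141 FPKM in the double and 5.11 and 19 in the triple mutant. Of the 13 genes of the adult cuticle list 4 were higher, all of which entered through the triple mutant alone, and 7 lower (4 and 5 with the summed scaling). The higher ones were col-7, col-19, col-62 and col-119. The lower ones included rol-6, sqt-1, sqt-2 and dpy-7 beside bli-1 and bli-2, and the list is not limited to genes specific to adults. Moulting genes were 12 of 32 lower and 0 higher (2 lower with the summed scaling), with mlt-10 at 136 and 33.9 FPKM. In the heterochronic pathway, which times larval stages, the late genes lin-29 (30.7 and 7.95 FPKM) and mab-10 (34 and 5.87) were lower. The early genes hbl-1 (5.27 and 23.1 FPKM), lin-28 (18.3 and 39.3) and lin-41 (23.1 and 57.2) were higher. These 5 were all that were called of 16 heterochronic genes (5 higher and 2 lower with the summed scaling). As deposited, 8 of the 16 had a higher and 8 a lower value, with a relative median of -0.11.

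Further stage markers were gathered after their values were seen, and get no weight as a list. The dauer cuticle gene cut-1 had 0.159 and 374 FPKM in the double and triple mutants, and 0.165 and 3.35 in WT and daf-2. col-36, described in the tables as peaking at the moults into L2 and into dauer, had 0.642 and 1198 FPKM, and 0.564 and 903 with H3.3. cut-1, col-2, col-40, col-36, cut-5 and cut-6 together summed to 5.18 FPKM in his-72;his-71, 3854 in the triple mutant, 4.99 in WT and 945 in daf-2. Genes known from embryos were higher too. The hatching enzyme gene hch-1 had 0.00525 and 11.2 FPKM, and nhr-2, expressed in early embryos, 0.167 and 7.69. The 7 skr genes skr-7 to skr-10 and skr-12 to skr-14, of the Skp1-related ubiquitin ligase family, summed to 0.512 and 131 FPKM in the double and triple mutants, and to 1.195 in daf-2. Of these, skr-10 also belongs to the oocyte and eggshell list and is counted in both places.

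From the list of genes transcribed in the early embryo, 4 of 23 were compared and 2 were higher. sdz-28 had 0.0217 and 6.75 FPKM, and pal-1 9.03 and 51. Of the 23 genes, 22 had a higher value in the triple mutant, mostly at under 5 FPKM, and the list summed to 42.7 and 113 FPKM. pal-1 alone held 9.03 and 51 FPKM of these sums. Whether the transcripts came from embryos or from oocytes was not tested. The single adult, embryo and dauer-moult genes named above with higher values were picked with those values known. The adult cuticle list, which also holds rol-6, sqt-1, sqt-2 and dpy-7 and is not limited to genes specific to adults, had 4 higher and 7 lower genes. Each genotype has 1 value from 5 libraries, so whether all or a few libraries carried these transcripts cannot be seen. The part of stage in the other results was not tested. With the members of the 13 stage and reproduction lists left out, a setting chosen after the data were seen, 1426 genes were higher and 1506 lower of 11430.

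Some muscle and intestine markers were lower, and most were not called. Of 38 muscle genes 8 were lower and 0 higher (2 lower with the summed scaling), and their relative median was -0.66. The troponin I gene tni-1 had 243 and 73 FPKM, the troponin T gene mup-2 455 and 161, and the body wall myosin gene unc-54 534 and 239. The pharyngeal myosin genes myo-1 (36.1 and 32.8 FPKM) and myo-2 (41 and 38.3), chosen after their values were seen, were close to equal. Of 30 intestine genes 12 were lower and 3 higher (7 lower and 5 higher with the summed scaling). The oligopeptide transporter gene pept-1 had 169 and 29.4 FPKM, its partner in proton exchange nhx-2 95.6 and 22.4, and the actin gene act-5 of the microvilli 948 and 299.7. The ferritin gene ftn-1, also induced by DAF-16, was higher (23 and 211 FPKM). The relative median of the intestine list was -0.60 here and 0.28 in daf-2 over WT.

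Neuronal genes were near the middle of all genes. Of 34 compared markers 3 were higher and 2 lower, with a relative median of 0.01. The 3 that were higher were unc-38, an acetylcholine receptor subunit (4.14 and 14.5 FPKM), and the tyramine and octopamine synthesis genes tdc-1 (13.7 and 44.4) and tbh-1 (0.598 and 60.5). The enzymes of tdc-1 and tbh-1 are known from the gonadal sheath as well as from neurons. Of 98 neuropeptide genes 8 were higher and 2 lower, whereas in daf-2 over WT 58 of 97 were higher and 0 lower. With the summed scaling 38 of 100 were higher and 1 lower without H3.3, so the contrast depends on the scaling. nlp-34, an antimicrobial peptide of the epidermis, had 55.6 and 338 FPKM. The abundant nlp-33, of the same kind, had 512 and 545.

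Other large families were divided. Transthyretin-related genes were 16 of 48 higher and 3 lower (25 and 2 with the summed scaling), with ttr-45 at 93.8 and 731 FPKM and ttr-2 at 239.5 and 839. Nuclear hormone receptors were 5 of 131 higher and 15 lower, 19 having entered through his-72;his-71 alone, and 149 of 280 were too low to compare. The 15 lower genes were 11.5%, near the 13.5% of all compared genes, and the 5 higher were 3.82%, beside 13.2%. With the summed scaling the direction with more genes turned, to 10 higher and 5 lower of 138. nhr-114 had 199 and 38.4 FPKM, and nhr-17 had 12.21 and 41. F-box and cullin adaptor genes were 36 of 115 higher and 12 lower, with 340 of 455 too low to compare. Of the 115, 35 entered through the triple mutant alone and 21 through his-72;his-71 alone; among the 59 with at least 5 FPKM in both groups 6 were higher and 4 lower. Nematode-specific peptide genes were 7 of 37 higher and 15 lower (11 and 9 of 38 with the summed scaling), nspe-1 being at 104.2 and 6.73 FPKM. Argonautes were 2 of 18 higher (11.1%) and 3 lower (16.7%), near the shares of all compared genes. The dauer pathway, of TGF-beta and steroid hormone genes, had 0 of 15 higher and 1 lower, the cytochrome gene daf-9 (8.24 and 3.53 FPKM). Trehalose and glyoxylate genes were 0 of 8 past the ratio.

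Among the nuclear chromosomes, the share of compared genes called higher ran from 8.52% on chromosome III to 18.6% on chromosome V, and the share called lower from 10.5% to 15.8% on the same 2 chromosomes. Their median log2 ratios lay between -0.13 on X and -0.01 on V. By level, in deciles of the compared genes ordered by the mean of the 2 pools, the median log2 ratio was -0.23 in the least abundant decile and rose to a highest value of 0.07 in the fifth. It was -0.08 in the eighth, -0.24 in the ninth and -0.51 in the most abundant decile.

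Set beside daf-2 over WT, the calls overlapped in part. Of the 1563 higher genes, 609 (39%) were also higher in daf-2 over WT, and they made up 35.3% of the 1725 higher there. In the opposite direction, 177 (11.3%) were lower in daf-2 over WT, 11.8% of those lower there. Of the 1604 lower genes, 588 (36.7%) were lower there too, and made up 39% of the 1506 lower there, while 16 were higher there. The percentages of genes called here include genes that were not compared in daf-2 over WT. Of the 1563 higher genes 1064 were compared there, with 609 higher, 177 lower and 278 within 2-fold. Of the 1604 lower genes 1390 were compared there, with 588 lower, 16 higher and 786 within 2-fold. Beside these counts, over all 10986 genes compared in both contrasts 13.3% were higher and 13.5% lower in daf-2 over WT. The remaining 499 higher and 214 lower genes could not be compared because both pools were under 5 FPKM or 1 was at 0. The 551 genes at least 10-fold higher were mostly of that kind: 345 could not be compared in daf-2 over WT, 152 were higher, 44 lower and 10 within 2-fold. Of the 36 genes at least 10-fold lower, 24 were lower in daf-2 over WT as well and 1 was higher.

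**Figure D5:**
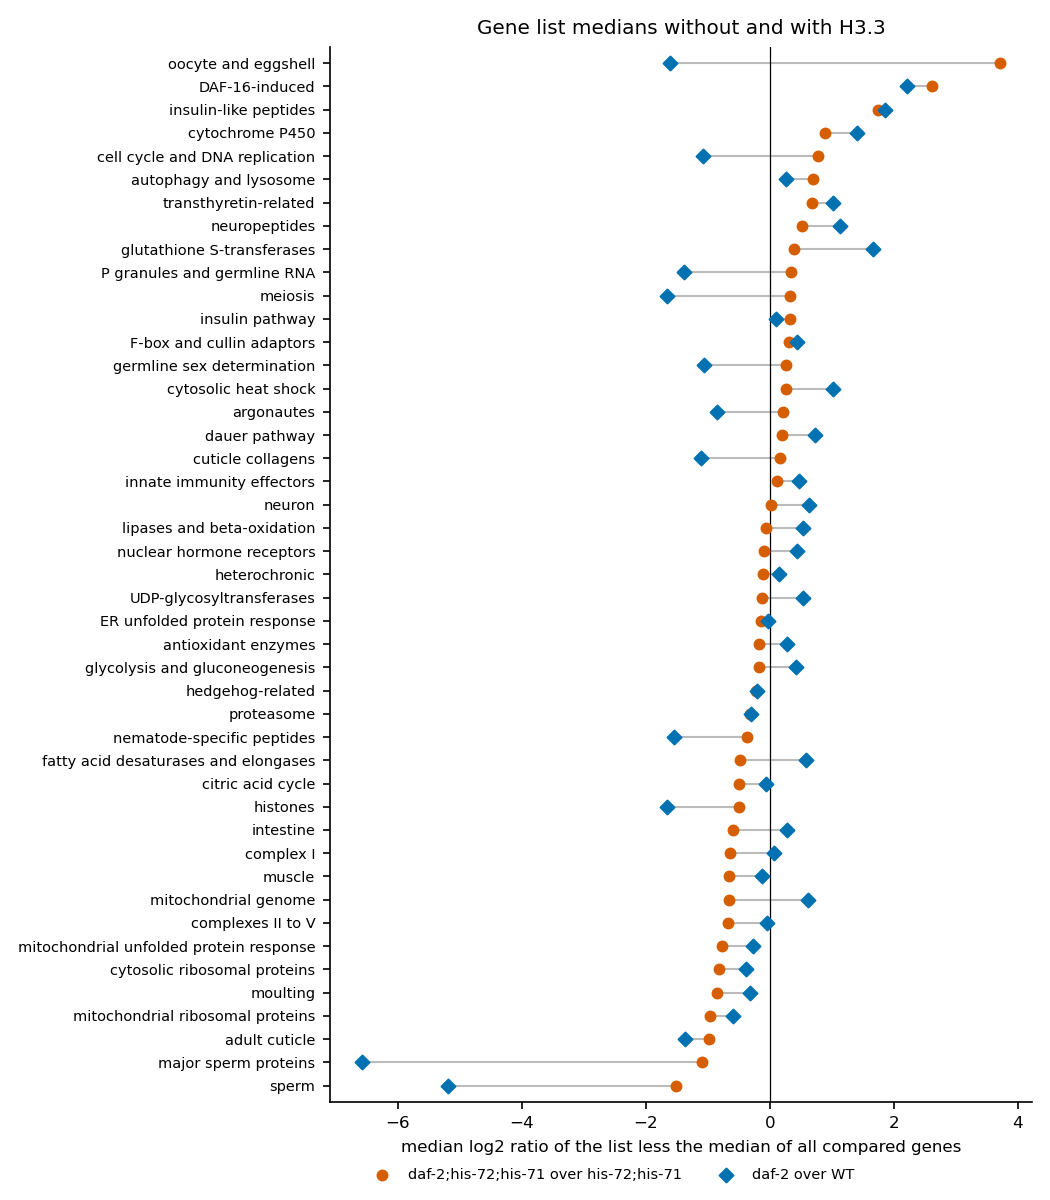
Median log2 ratio of each gene list less the median of all compared genes, for daf-2;his-72;his-71 over his-72;his-71 (orange circles) and daf-2 over WT (blue diamonds); lists with at least 10 compared genes in both contrasts are shown. DAF-16-induced genes and insulin-like peptides lie to the right of 0 in both contrasts, and oocyte and eggshell genes lie to the right without and to the left with H3.3.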

How the data were processed

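Whole-worm mRNA libraries of 6 genotypes were sequenced, 5 per genotype. The deposited FPKM values were made by the authors before deposit. FastQC, STAR, Cufflinks and Cuffdiff are named, without versions, in the submitters' processing notes. The genome build and the way replicates were combined are not given in the sources used here. Each deposited table holds 1 value per gene for 1 genotype, and 1 row that names no gene was left out. Depth is unknown, and no interval or limit of detection can be given.

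Tables were joined by gene ID with pandas 2.3.3. Ratios were taken from the values as deposited, without a pseudocount, over genes that reached 5 FPKM in 1 of the pools and were above 0 in both. A ratio of at least 2 took the place of a test; the arithmetic was tested on simulated data. Members were named by rule: the 3 mutated genes, the 10 largest ratios each way, per list up to 6 called members each way and the 3 most abundant, and up to 5 each way among genes that reached 100 FPKM in each pool. Some were left out for length, and some are not reported here. The genes, the 49 lists and the alternatives were chosen with earlier results of these data known. Of 20483 genes, 20179 were found by ID in the WBcel235 annotation, with no difference of chromosome, and for 8975 the start or the end was identical. No sequences are printed.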

Additional observations from a re-analysis of the deposited data

Results flagged for a closer look

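Yolk protein genes and oocyte and eggshell genes were called mostly higher with the daf-2 allele without H3.3 and mostly lower with the daf-2 allele in the presence of H3.3. For the yolk proteins, 6 of 6 were higher here and 3 of 3 lower in daf-2 over WT, and the medians of the log2 ratios differed by 11.5. For the oocyte and eggshell genes, 31 of 35 were higher here and 13 of 21 lower there, and the medians differed by 5.25. In both lists the 2 medians are over different numbers of genes, so the differences are not those of a common set. The yolk genes were also low in daf-2, where all 6 summed to 5.01 FPKM. The 2 contrasts share no pool. The difference between them was not tested, since each genotype has 1 pooled value. Some adult, embryo and dauer-moult transcripts, chosen after their values were seen, were high in the same triple mutant pool. Of the 13 genes of the adult cuticle list, which is not limited to genes specific to adults, 7 were lower and 4 higher (5 and 4 with the summed scaling). The part of stage in these 2 results was not tested.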

How the results depend on the processing

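The counts of higher and lower genes moved with the threshold and the scaling. Scaling both pools to the same summed FPKM gave 2675 higher and 831 lower, a minimum of 20 FPKM gave 910 and 878, and no minimum gave 3434 and 3272. A ratio of 3 gave 1026 and 632, and a ratio of 1.5 gave 2564 and 3154, so the direction with more genes turned between these 2 ratios. Scaling to equal median ratios (1740 and 1386), a pseudocount of 1 (1450 and 1439), genes at 0 kept (1580 and 1582) and genes at shared loci left out (1273 and 1282) stayed within 1.5 times. So did a minimum of 1 FPKM in both pools, chosen after the data were seen (1156 and 1554). Of the 49 lists, 9 had a median past the ratio of 2, and 0 of these changed sign under 7 alternatives. The 2 scalings, which move log2 ratios by 0.39 and 0.08, could hardly have changed such a sign. With the summed scaling some of these medians no longer reached the ratio of 2. They were mitochondrial ribosomal proteins (-0.64), adult cuticle (-0.66), major sperm proteins (-0.76) and zygotic embryo genes (0.73). Among the other lists, the summed scaling turned the sign of 10 medians: antioxidant enzymes, UDP-glycosyltransferases, endoplasmic reticulum stress, glycolysis, lipases and beta-oxidation, proteasome, heterochronic, hedgehog-related, nuclear receptor and neuron genes. A minimum of 20 FPKM turned 6 medians and no minimum turned 2. Scaling to equal median ratios and leaving out shared loci turned 1 each. No paired analysis was possible because the deposited columns hold 1 pooled value per genotype and carry no replicate numbers, and leaving out single replicates could not be done for the same reason.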

Other observations

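Genes of propionate breakdown, gathered after 2 of them appeared among the abundant genes with the lowest ratios, differed by route. In worms propionate is broken down by a vitamin B12-dependent route and, when that route is slow, by a shunt through beta-oxidation-like steps. The 5 shunt genes had lower values in the triple mutant than in his-72;his-71. acdh-1, an acyl-CoA dehydrogenase gene, had 3676 and 882 FPKM, and the enoyl-CoA hydratase gene ech-6 had 1352 and 348. The next enzyme genes were F09F7.4, now hach-1 (580.3 and 113 FPKM), Y38F1A.6, now hphd-1 (1038 and 189), and alh-8 (987 and 355). All 5 were past the ratio of 2, from 2.78-fold to 5.48-fold, and all 5 were so with the summed scaling. In WT and daf-2 their sums were 6264 and 3969.7 FPKM, beside 7633 and 1886 without H3.3. Of 6 genes of the B12-dependent route 1 was lower, mmaa-1 (133 and 58 FPKM), while pcca-1 and pccb-1, the propionyl-CoA carboxylase genes, had 111 and 114.4 FPKM in the double and 122 and 128 in the triple mutant. The list was made from the values themselves and has no test.

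Methionine cycle and phosphocholine genes, gathered in the same way, were 7 of 13 lower and 0 higher. The S-adenosylmethionine synthetase gene sams-1 had 594 and 93.2 FPKM, and 589.9 and 268 in WT and daf-2. The methionine synthase reductase gene mtrr-1 had 246 and 54.5 FPKM, and ahcy-1, which hydrolyses S-adenosylhomocysteine, 3420.3 and 1055. The methyltransferase gene pmt-2 was lower, whereas pmt-1, which acts at an earlier step, had 319 and 236 FPKM.

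Genes listed at 0 in 1 pool were left out of the ratios. In his-72;his-71, 24 genes were listed at 0 that had at least 5 FPKM in the triple mutant, and 1 gene, T22B7.8, was listed at 0 in the triple mutant with 5.76 FPKM in the double mutant. The largest of the 24 were F20E11.17 (138 FPKM in the triple mutant) and ppm-1 (113.6). ppm-1 was also listed at 0 in WT and had 104.1 FPKM in daf-2.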
